A study of Drosophila melanogaster with 10 samples.

Results

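Heat shock proteins and chaperonins were followed in sorted type II neuroblasts (NB II) of the Drosophila larval brain and their descendants. The group held 34 genes out of the 17676 genes of the count table, matched by FlyBase symbol or synonym. No measured value entered that rule, but earlier results of these data were known when the genes were chosen. They were 14 stress-induced genes, 14 constitutive genes and 6 that belong to neither class. The stress-induced genes were the 7 heat shock genes clustered at cytological position 67B, the 6 copies of Hsp70, and Hsp68. The constitutive genes were 6 of the Hsc70 family and the 8 subunits of the cytosolic chaperonin CCT. The other 6 were Hsp83, Hsp60A, the heat shock factor Hsf, and the co-chaperones DnaJ-1, Hop (the Hsp70/Hsp90 organizing protein, also called Stip1) and stv.

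Libraries of polyadenylated RNA came from 3 genotypes. All carried wor-GAL4 ase-GAL80 UAS-mCD8::GFP, in which the worniu driver acts in larval neuroblasts and the asense repressor blocks it in type I neuroblasts, so that NB II lineages were marked by GFP. With UAS-brat-IR and UAS-Spt5-IR together they formed the 3 libraries labelled brat-KD/Spt5-KD, with UAS-brat-IR alone the 4 libraries of Brat-depleted NB II, and with neither the 3 libraries of control NB II. Larvae were raised at 25 °C and were 96 h old according to the labels. In every genotype the brains were incubated in warm dissociation enzymes and GFP-positive cells were then sorted, so all levels below are those of cells handled in this way, and no undissociated tissue was compared. Nothing in the labels says that replicates were separate cultures, so p-values measure the spread between these libraries, which may be in part technical.

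Heat shock proteins keep unfolded proteins from aggregating. Small heat shock proteins hold them, Hsp70 proteins bind and release them with the help of J-domain partners, Hsp83 (the fly Hsp90) finishes the folding of kinases and receptors, and CCT folds actin and tubulin. In flies the Hsp70 copies and the 67B genes are switched on by the heat shock factor when proteins unfold, whereas Hsc70 proteins and CCT are made in growing cells without stress. Hsp70 is also the classical example of a gene on which RNA polymerase II pauses, and Spt5 is a subunit of the factor DSIF that accompanies paused and elongating polymerase.

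Library totals were between 2158058 and 9753111 counts. The brat transcript was lower by 2.48 on the log2 scale in Brat-depleted NB II and by 2.18 in brat-KD/Spt5-KD-labelled libraries, each against the control (adjusted p = 1.53e-05 and 0.0143, edgeR's quasi-likelihood test). The Spt5 transcript stood at 205, 116 and 584 CPM (counts scaled to a common library size, after TMM scaling of all 10 libraries) in brat-KD/Spt5-KD-labelled libraries, against 128 to 165 CPM in Brat-depleted libraries and 182 to 227 CPM in control libraries. It was thus lower than in Brat-depleted libraries in only 1 of the 3, and these libraries are called by their label. Replicate 1 stood apart within its genotype, with a rank correlation to its fellows of 0.801 in brat-KD/Spt5-KD-labelled libraries and of 0.895 and 0.897 in the control, where the other pair reached 0.934 and 0.987. Marker lists moved with the genotypes: the 7 markers listed for NB II summed to 1700 to 2190 CPM in brat-KD/Spt5-KD-labelled libraries, 3310 to 3720 CPM in Brat-depleted libraries and 1710 to 1860 CPM in control libraries, and the 5 neuronal markers to 196 to 256 CPM in brat-KD/Spt5-KD-labelled libraries, 169 to 250 CPM in Brat-depleted libraries and 1080 to 1310 CPM in control libraries. The NB II list is not specific to NB II. According to the paper, type I neuroblasts and mature intermediate progenitors also carry Dpn, and wor-GAL4 is active in type I neuroblasts too. Within the NB II list Sox102F went the other way, with 6.59 to 21.9 CPM in brat-KD/Spt5-KD-labelled libraries, 3.49 to 10.3 CPM in Brat-depleted libraries and 40.7 to 96.4 CPM in control libraries. The sum was largely mira. In brat-KD/Spt5-KD-labelled libraries wor had 292 to 387 CPM and pnt 147 to 234 CPM, against 181 to 203 and 53.4 to 83.3 CPM in the control. There dpn had 70.7 to 72.3 CPM, against 16.0, 115 and 154 CPM in brat-KD/Spt5-KD-labelled libraries. The means of mira, insc and klu were lower in brat-KD/Spt5-KD-labelled libraries than in the control. The 5 markers of intermediate progenitors and type I neuroblasts summed to 322 to 409 CPM in brat-KD/Spt5-KD-labelled libraries, 628 to 697 CPM in Brat-depleted libraries and 415 to 529 CPM in control libraries. Of these, only grh was higher in Brat-depleted libraries, with 523 to 643 CPM against 113 to 186 CPM in the control. The markers ase, erm, opa and D went the other way. They had at most 38.5, 29.2, 25.5 and 21.2 CPM in Brat-depleted libraries. In control libraries they had at least 58.97, 55.1, 76.98 and 68.6 CPM. The 6 glial markers did not exceed 261 CPM in sum in any library. Nearly all of this was nrv2, with 111 to 243 CPM, whereas repo, moody, wrapper, Gs2 and alrm each had at most 9.51 CPM. A list of 8 early response and cell stress genes summed to 163 to 184 CPM in brat-KD/Spt5-KD-labelled libraries, 89.0 to 105 CPM in Brat-depleted libraries and 72.9 to 112 CPM in control libraries. Its genes did not all move together. Gadd45 had 62.02 to 65.48 CPM, 8.96 to 18.97 CPM and 3.96 to 7.06 CPM in the same order of genotypes. The genes kay, sr, Hr38, upd3 and Ets21C also had their highest means in brat-KD/Spt5-KD-labelled libraries, but overlapped with the control. Jra had its lowest mean there, at 15.1 CPM against 23.7 and 30.7 CPM. The mean of puc was highest in Brat-depleted libraries. The 5 hemocyte markers summed to 20.7 to 71.4 CPM in brat-KD/Spt5-KD-labelled libraries, 12.3 to 24.9 CPM in Brat-depleted libraries and 80.2 to 100 CPM in control libraries, lowest to highest in each, with NimC1 at 0 in all and Hml at 0 in the control. These markers differed in direction. Pxn had 32.3 to 88.9 CPM in the control and at most 7.56 CPM elsewhere. Hml and vkg were instead highest in brat-KD/Spt5-KD-labelled libraries, with 6.55 to 16.0 and 4.03 to 15.3 CPM, and vkg had at most 2.65 CPM elsewhere. The 5 fat body markers reached 26.4 CPM in sum in brat-KD/Spt5-KD-labelled libraries and 1.98 CPM in Brat-depleted libraries, and in the control they were at 44.2 CPM in replicate 3 and at 0 and 1.04 CPM in replicates 1 and 2. In bulk RNA, fewer cells of a type and less RNA per cell cannot be told apart, and the part of these cell types in the results below was not tested.

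Stress-induced chaperone transcripts were abundant in all genotypes. The 14 genes took 1.83% to 3.29% of all counts in brat-KD/Spt5-KD-labelled libraries, 3.53% to 5.04% in Brat-depleted libraries and 4.09% to 7.42% in control libraries, and 5 to 12 of them ranked among the 100 genes with the most counts, depending on the library. In control replicate 3, Hsp23 had more counts than any other gene. Scaled to transcript length, the highest mean levels in the control were those of Hsp23 with 8433, Hsp26 with 6174 and Hsp27 with 3988 CPM per kilobase, and Hsc70-4, the major cytosolic Hsc70, came seventh among the members with 2146. There, Hsp23 and Hsp26 were far ahead, whereas in brat-KD/Spt5-KD-labelled libraries Hsc70-4 came next to them, with 3006, 2936 and 2884 CPM per kilobase for Hsp23, Hsp26 and Hsc70-4. The constitutive genes were far more even: the 14 took 1.36% to 1.62% of counts in brat-KD/Spt5-KD-labelled libraries, 1.47% to 1.71% in Brat-depleted libraries and 1.11% to 1.13% in control libraries.

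Inducible genes moved apart from Hsc70-4 and from the CCT subunits, which ratios within a library show without any scaling between libraries. The counts of the 6 Hsp70 copies were 2.54, 0.971 and 1.69 times those of Hsc70-4 in brat-KD/Spt5-KD-labelled libraries (here and below in the order of their replicate numbers), 2.27, 3.05, 1.62 and 2.11 times in Brat-depleted libraries, and 6.95, 3.54 and 5.48 times in control libraries. The 7 genes at 67B together, with the overlapping Hsp22 and Hsp67Bb counted once, had 2.25, 1.24 and 1.99 times the counts of the 8 CCT subunits in brat-KD/Spt5-KD-labelled libraries, 3.51, 3.52, 2.82 and 2.58 times in Brat-depleted libraries, and 5.50, 4.19 and 8.68 times in control libraries. Both ratios were higher in every control library than in any library of the other genotypes, and the second ratio separated all 3 genotypes. They do not stand for every constitutive gene. Hsc70-3 fell by 0.68 on the log2 scale in Brat-depleted NB II against the control, beside -0.70 for the summed Hsp70 copies.

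**Figure D1:**
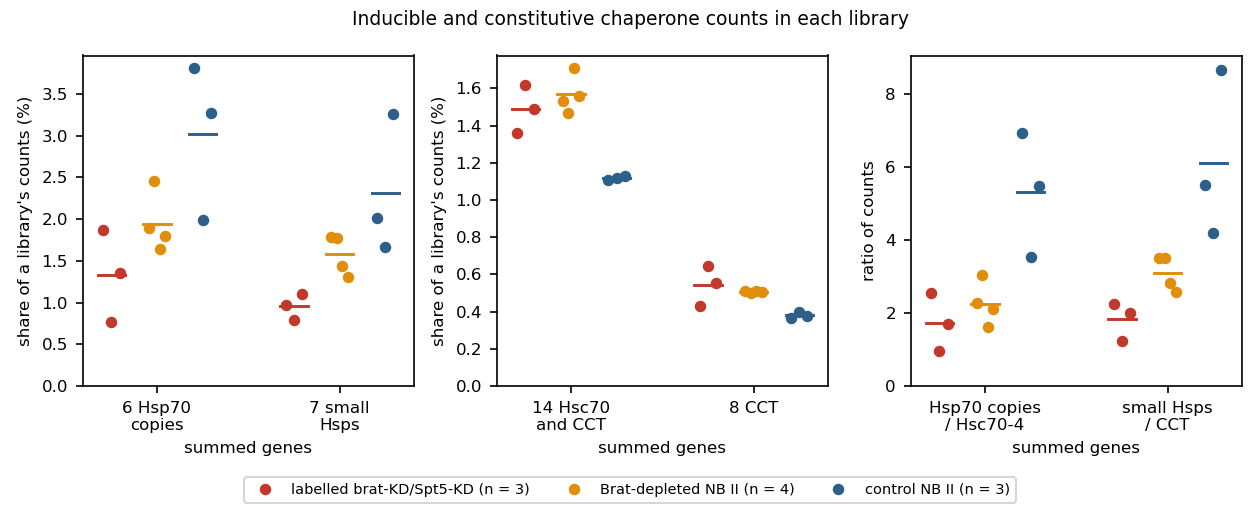
Share of a library's counts (%) held by summed inducible genes (left panel) and constitutive genes (middle panel), and ratio of counts between inducible and constitutive genes (right panel). Each point is a library and each line a mean, with red for labelled brat-KD/Spt5-KD, orange for Brat-depleted NB II and blue for control NB II. The ratio of Hsp70 copies to Hsc70-4 lies between 0.971 and 2.54 in red, between 1.62 and 3.05 in orange and between 3.54 and 6.95 in blue.

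Several of these genes are not separate measurements. Hsp22 and Hsp67Bb overlap on the same strand of chromosome arm 3L and had identical counts in 9 of the 10 libraries, so they are given as 1 value. The Hsp70 copies lie in 2 clusters on 3R (Hsp70Aa and Hsp70Ab, and Hsp70Ba, Hsp70Bb, Hsp70Bbb and Hsp70Bc) and are nearly identical in sequence. The count of Hsp70Ab was 0.942 to 0.964 times that of Hsp70Aa in every library, and how reads were shared out among the copies is uncertain. Counting the copies once and Hsp22 with Hsp67Bb once, the 14 stress-induced genes give 8 measurements. With that pair counted once, the stress-induced share of counts was 1.73% to 3.20% in brat-KD/Spt5-KD-labelled libraries, 3.34% to 4.72% in Brat-depleted libraries and 3.91% to 6.99% in control libraries. In all, 10 of the 34 genes overlap another annotated gene, among them Hsp67Ba with an antisense RNA, and whether the counting used the strand is not given in the sources used here.

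In Brat-depleted NB II, stress-induced transcripts were lower than in control NB II while mitochondrial and several cytosolic constitutive chaperones were higher. Of the 32 members with enough counts for a test, 6 rose and 9 fell at an adjusted p under 0.05, where 13.8% of all 8785 tested genes rose and 14.3% fell. All but 1 of those that fell were stress-induced: 8 of 14 fell and none rose, and none rose at an unadjusted p under 0.05 or with DESeq2 either. Of these 8 calls, 4 are near-identical copies of Hsp70, and with the copies summed and Hsp22 and Hsp67Bb taken as 1, 4 of 8 measurements fell. The part of the marker transcripts above in these falls was not tested. The median log2 fold change was -0.73 for the 14 stress-induced genes and 0.35 for the 12 tested constitutive genes, beside -0.02 for all tested genes. The libraries of both genotypes did not overlap for 8 members that were higher in Brat-depleted NB II (20.3% of all genes) and 4 that were lower (18.4%). Left out one at a time, the libraries gave 6 to 16 members past the threshold, and without control replicate 3, the library with the highest levels of the 67B genes and the control library with fat body transcripts, 3 rose and 3 fell. Fitted together with the third genotype, 3 rose and 3 fell as well.

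In brat-KD/Spt5-KD-labelled libraries, 4 of the 32 members fell against Brat-depleted NB II and none rose, where 5.91% of 8750 genes rose and 5.71% fell. These were Hsp22 with Hsp67Bb, Hsp67Ba and Hsp83, so that 2 of the 8 separate stress-induced measurements fell. At an unadjusted p under 0.05 the numbers were 2 higher and 8 lower, and DESeq2 gave 2 and 7. The median log2 fold change was -0.59 for the stress-induced genes, with all 14 below 0, and -0.03 for the constitutive genes, beside -0.05 for all genes. Libraries did not overlap for 2 members on the higher side (12.9% of all genes) and 7 on the lower side (16.6%). With single libraries left out the count lay between 1 and 10, and it was 10 without replicate 1 of brat-KD/Spt5-KD-labelled libraries, 2 of them higher and 8 lower.

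Against control NB II, brat-KD/Spt5-KD-labelled libraries differed in 5 members at the same threshold. Hsc70-5 rose, and Hsp67Ba, Hsp67Bc, Hsp83 and Hsc70-3 fell, where 3.97% of 8506 genes rose and 3.32% fell. All 14 stress-induced genes had fold changes below 0, with a median of -1.32 on the log2 scale beside -0.01 for all genes, and the libraries did not overlap for 13 of them (18.3% of all genes were apart in that direction and 15.8% in the other). Both numbers include the 6 near-identical Hsp70 copies and Hsp22 with Hsp67Bb, so they do not count separate measurements. Only 2 of the 14, and 2 of the 8 separate measurements, passed the threshold, however, while all 14 had an unadjusted p under 0.05 and DESeq2 called 13. The constitutive genes had a median of 0.50, with 1 of 12 higher and 1 lower past the threshold. The number of members called was the least settled of the 3 comparisons: it was 1 or 2 without any 1 control library or without replicate 2 or 3 of brat-KD/Spt5-KD-labelled libraries, 17 without their replicate 1, and 21 (7 higher, 14 lower) without replicate 1 of both genotypes, a choice made after the data were seen. These comparisons share libraries pairwise and are not independent of each other.

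**Figure D2:**
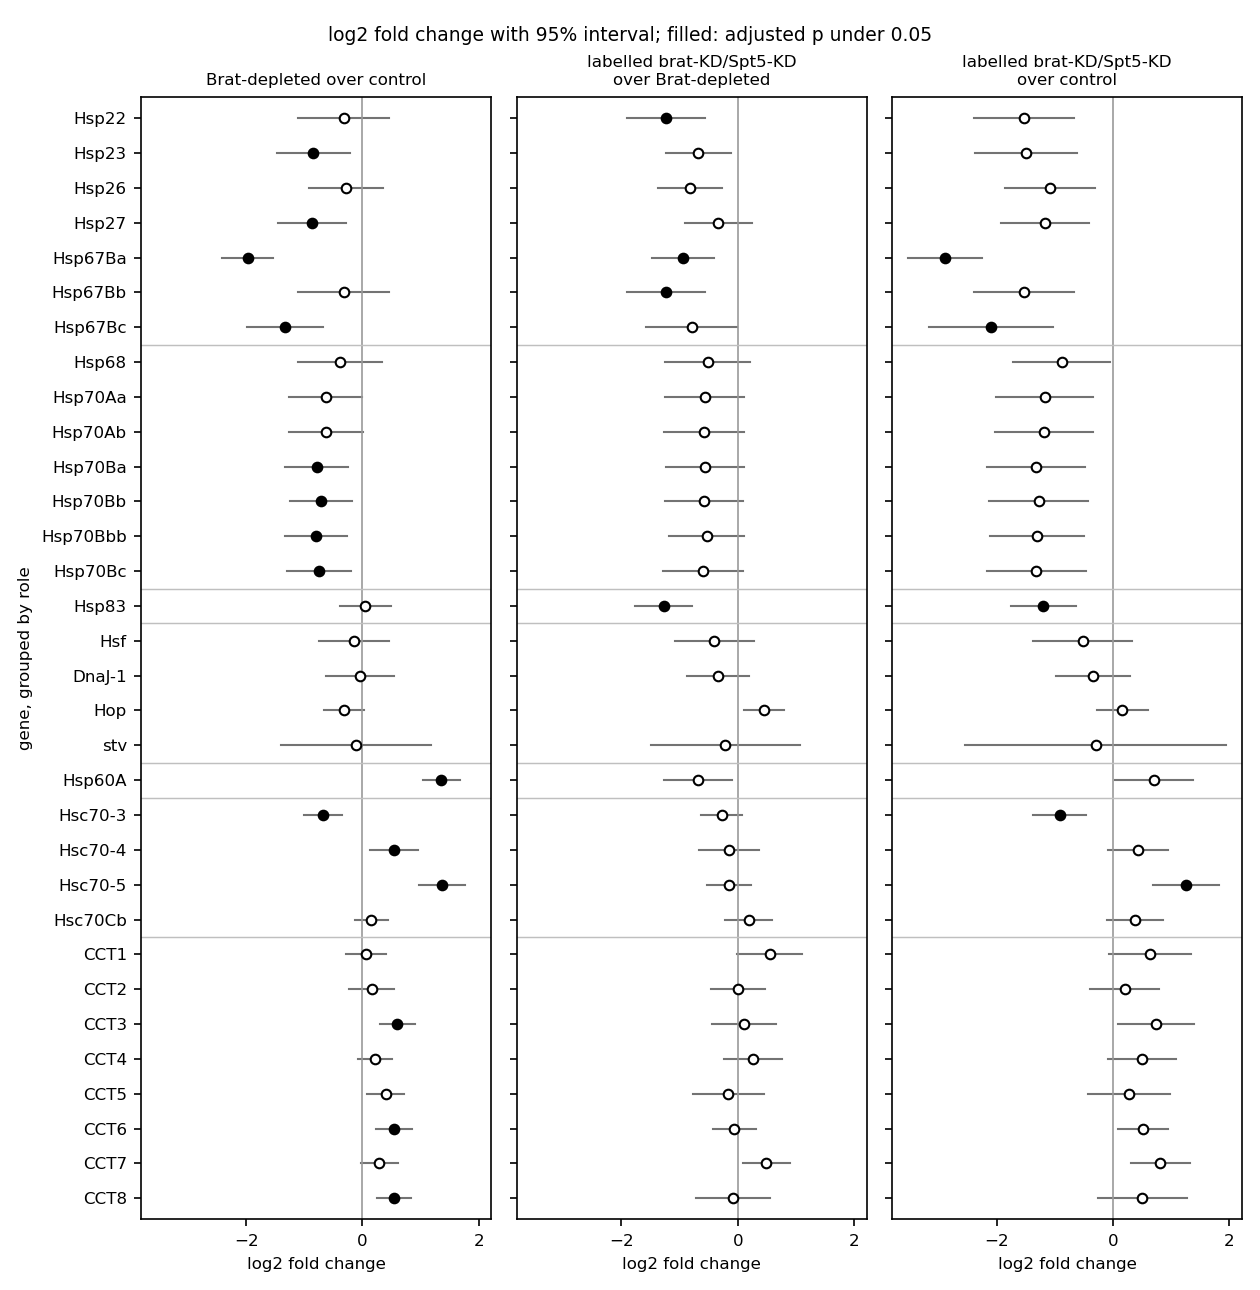
Log2 fold change (horizontal axis) with its 95% interval for the 32 tested members, grouped by role from the 67B genes at the top to the CCT subunits at the bottom, in the 3 comparisons. Filled points passed an adjusted p under 0.05 in edgeR's quasi-likelihood test, which 15, 4 and 5 members did from left to right. The 14 stress-induced genes in the upper blocks lie left of 0 in all 3 panels.

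The 67B cluster spans chromosome 3L from 9371511 to 9385694 (BDGP6) and holds Hsp67Ba, the member with the largest difference from the control in both other genotypes. Hsp67Ba had 98.0, 68.0 and 114 CPM in brat-KD/Spt5-KD-labelled libraries, 160, 136, 204 and 204 CPM in Brat-depleted libraries, and 523, 663 and 872 CPM in control libraries. The 3 genotypes did not overlap in any pair. It fell by 1.97 ± 0.20 (SE) on the log2 scale in Brat-depleted NB II against the control (adjusted p = 5.95e-05) and by 2.89 ± 0.28 in brat-KD/Spt5-KD-labelled libraries against the control (adjusted p = 0.00315), and both calls held under all alternatives tried. Its further fall of 0.94 ± 0.24 in brat-KD/Spt5-KD-labelled libraries against Brat-depleted NB II (adjusted p = 0.0358) was lost without replicate 2 of brat-KD/Spt5-KD-labelled libraries or without replicate 1, 3 or 4 of Brat-depleted NB II, at adjusted p between 0.0817 and 0.126.

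Hsp67Bc, a small heat shock protein with a crystallin domain, had its means in the same order at lower levels. It had 100, 41.1 and 48.4 CPM in brat-KD/Spt5-KD-labelled libraries, 101, 146, 109 and 75.9 CPM in Brat-depleted libraries, and 243, 159 and 409 CPM in control libraries. It fell by 1.33 ± 0.30 in Brat-depleted NB II (adjusted p = 0.00722) and by 2.10 ± 0.46 in brat-KD/Spt5-KD-labelled libraries (adjusted p = 0.0363), each against the control. The second call was lost without any 1 control library or without replicate 2 or 3 of brat-KD/Spt5-KD-labelled libraries, at adjusted p between 0.0708 and 0.144.

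The abundant members of the cluster varied more between libraries. Hsp23 had 2446, 2030 and 3495 CPM in brat-KD/Spt5-KD-labelled libraries, 4537, 4994, 3678 and 3511 CPM in Brat-depleted libraries, and 6008, 4881 and 11476 CPM in control libraries. Hsp27 had 2299, 2658 and 3696 CPM in brat-KD/Spt5-KD-labelled libraries, 4608, 3582, 3394 and 2709 CPM in Brat-depleted libraries, and 4626, 5507 and 9391 CPM in control libraries. Control replicate 3 was the highest library for both. In Brat-depleted against control NB II, Hsp23 fell by 0.85 ± 0.28 (adjusted p = 0.0467) and Hsp27 by 0.87 ± 0.27 (adjusted p = 0.0311). Without control replicate 3 these values were -0.38 (adjusted p = 0.277) and -0.50 (adjusted p = 0.176), and without brat-KD replicates 1, 2, 3 or 4 for Hsp23, or 2, 3 or 4 for Hsp27, adjusted p lay between 0.0528 and 0.127. In brat-KD/Spt5-KD-labelled libraries against the control, Hsp23 stood at -1.50 ± 0.37 (adjusted p = 0.055) and Hsp27 at -1.17 ± 0.33 (adjusted p = 0.0737), with no overlap of libraries, and DESeq2 called both.

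Hsp22, a small heat shock protein of mitochondria, and Hsp67Bb shared one profile that set brat-KD/Spt5-KD-labelled libraries apart from both other genotypes. It had 839, 989 and 1156 CPM in brat-KD/Spt5-KD-labelled libraries, 2502, 3393, 1875 and 1455 CPM in Brat-depleted libraries, and 2058, 1880 and 4677 CPM in control libraries. It fell by 1.23 ± 0.30 against Brat-depleted NB II (adjusted p = 0.0304), a call lost without brat-KD replicate 1, 2 or 3 or without replicate 2 or 3 of brat-KD/Spt5-KD-labelled libraries, at adjusted p between 0.0612 and 0.0958. Against the control the change was -1.53 ± 0.37 (adjusted p = 0.0506). Between Brat-depleted and control NB II it was -0.33, with an interval from -1.10 to 0.45, and it turned to 0.23 without control replicate 3. Hsp26 showed a like pattern, with -0.82 ± 0.24 against Brat-depleted NB II (adjusted p = 0.0601) and -0.28 between Brat-depleted and control NB II, but passed in no comparison.

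**Figure D3:**
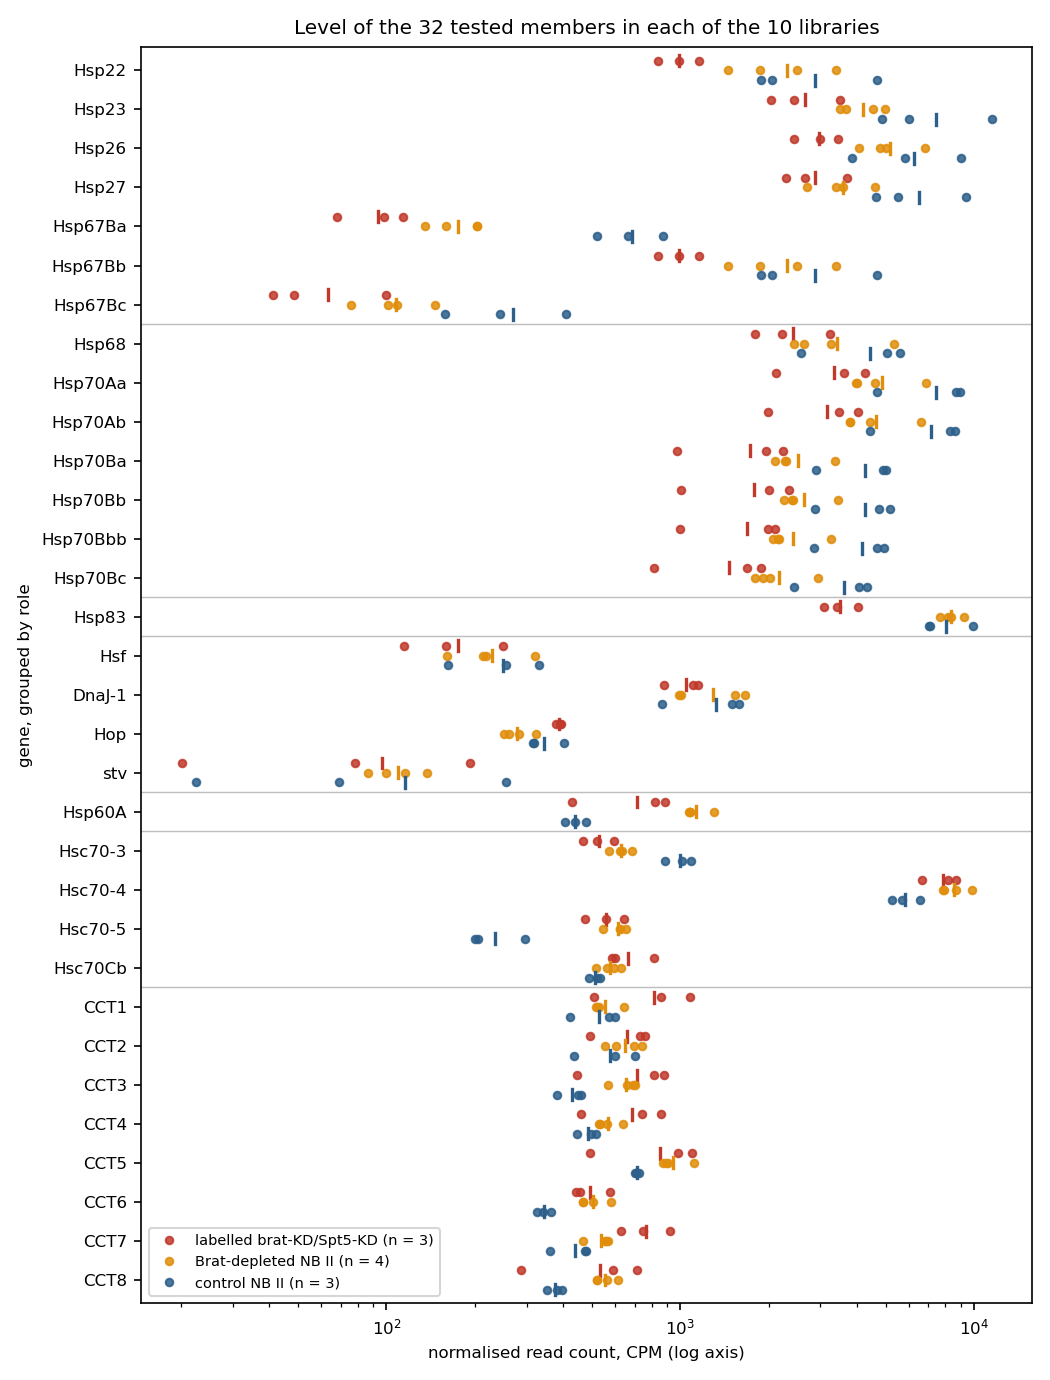
Normalised read count (CPM, log axis) of the 32 tested members in the 10 libraries, grouped by role. Points are libraries and short lines are means, with red for labelled brat-KD/Spt5-KD, orange for Brat-depleted NB II and blue for control NB II. For Hsp67Ba the genotypes separate in full, from 68.0 to 114 CPM in red through 136 to 204 CPM in orange to 523 to 872 CPM in blue, while for Hsp83 red stands alone.

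The 6 Hsp70 copies, the main inducible chaperone of the fly, moved in step. Summed, they had 16848, 7918 and 14723 CPM in brat-KD/Spt5-KD-labelled libraries, 17898, 26539, 15999 and 16570 CPM in Brat-depleted libraries, and 36459, 20165 and 35930 CPM in control libraries. The control library with the lowest sum lay below the highest library of Brat-depleted NB II, so these genotypes overlapped. Taken one by one, Hsp70Ba, Hsp70Bb, Hsp70Bbb and Hsp70Bc fell in Brat-depleted NB II against the control by 0.79 ± 0.25, 0.72 ± 0.24, 0.80 ± 0.24 and 0.75 ± 0.25 (adjusted p = 0.0335, 0.0481, 0.0303 and 0.0431), and Hsp70Aa and Hsp70Ab stood at -0.63 each (adjusted p = 0.124 and 0.128). Summed to 1 row, the copies did not pass: the change was -0.70 ± 0.29 (adjusted p = 0.0935, interval -1.33 to -0.07), although the sum passed with DESeq2 (adjusted p = 0.015) and without brat-KD replicate 2 (-0.89, adjusted p = 0.0325). Each of the 4 calls was also lost without brat-KD replicate 1, 3 or 4 or without control replicate 1 or 3, at adjusted p between 0.0755 and 0.14.

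Levels of the single copies show the same picture. Hsp70Ba had 2246, 979 and 1960 CPM in brat-KD/Spt5-KD-labelled libraries, 2270, 3364, 2105 and 2298 CPM in Brat-depleted libraries, and 5015, 2906 and 4895 CPM in control libraries. Hsp70Bb had 2343, 1005 and 2002 CPM in brat-KD/Spt5-KD-labelled libraries, 2401, 3448, 2251 and 2422 CPM in Brat-depleted libraries, and 5165, 2876 and 4759 CPM in control libraries. Hsp70Bbb had 2099, 1000.2 and 1983 CPM in brat-KD/Spt5-KD-labelled libraries, 2155, 3260, 2074 and 2174 CPM in Brat-depleted libraries, and 4942, 2859 and 4662 CPM in control libraries. The copies of this cluster ranked the libraries almost alike. Hsp70Bc had 1880.2, 815 and 1694 CPM in brat-KD/Spt5-KD-labelled libraries, 2016, 2951, 1802 and 1922 CPM in Brat-depleted libraries, and 4318, 2447 and 4050.2 CPM in control libraries. Hsp70Aa, the copy with the most counts, had 4252, 2122 and 3616 CPM in brat-KD/Spt5-KD-labelled libraries, 4619, 6890, 3987 and 3964 CPM in Brat-depleted libraries, and 8709, 4660 and 8941 CPM in control libraries. Replicate 2 was the lowest of the control libraries and of brat-KD/Spt5-KD-labelled libraries, and the highest of Brat-depleted libraries. The summed copies of brat-KD/Spt5-KD-labelled libraries stood at -0.57 ± 0.34 against Brat-depleted NB II (adjusted p = 0.32, interval -1.33 to 0.18) and at -1.24 ± 0.38 against the control (adjusted p = 0.0966, interval -2.13 to -0.36). The second value passed without replicate 1 of brat-KD/Spt5-KD-labelled libraries (-1.46, adjusted p = 0.0344), with DESeq2 (adjusted p = 0.00249) and in a fit of all 3 genotypes together (adjusted p = 0.0393). Hsp68, a further heat-induced Hsp70, had -0.39, -0.52 and -0.88 in the 3 comparisons, none past the threshold.

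Hsp83 separated brat-KD/Spt5-KD-labelled libraries from both other genotypes. It had 3407, 3089 and 4037 CPM in brat-KD/Spt5-KD-labelled libraries, 8133, 8374, 9271 and 7669 CPM in Brat-depleted libraries, and 7096, 7035 and 9965 CPM in control libraries. It fell by 1.27 ± 0.22 against Brat-depleted NB II (adjusted p = 0.00918) and by 1.20 ± 0.24 against the control (adjusted p = 0.028). The first call was kept with each library left out in turn, and the second was lost without any 1 control library or without replicate 2 or 3 of brat-KD/Spt5-KD-labelled libraries, at adjusted p between 0.0659 and 0.147. Between Brat-depleted and control NB II the difference was 0.05, with an interval from -0.39 to 0.49.

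The heat shock factor and the co-chaperones did not pass in any comparison. Hsf, the transcription factor that activates the stress-induced genes, had 115 to 249 CPM in brat-KD/Spt5-KD-labelled libraries, 161 to 321 CPM in Brat-depleted libraries and 162 to 332 CPM in control libraries, with differences of -0.15 between Brat-depleted and control NB II, and of -0.40 and -0.52 for brat-KD/Spt5-KD-labelled libraries against Brat-depleted and control NB II. DnaJ-1, the heat-induced J-domain partner of Hsp70, had 1149, 883 and 1109 CPM in brat-KD/Spt5-KD-labelled libraries, 1662, 1532, 1010 and 987 CPM in Brat-depleted libraries, and 1505, 868 and 1590 CPM in control libraries. The interval of its difference between Brat-depleted and control NB II ran from -0.62 to 0.54. Hop was at 378 to 394 CPM in brat-KD/Spt5-KD-labelled libraries, above the 251 to 322 CPM of Brat-depleted NB II, with a difference of 0.45 ± 0.15 (adjusted p = 0.0914), and at 316 to 402 CPM in control libraries. The widest spread of all was that of stv, a BAG-domain partner of Hsp70, which differed 9.53-fold between brat-KD/Spt5-KD-labelled libraries and 11.3-fold between control libraries. Its difference between Brat-depleted and control NB II was -0.11, and 1.31 without control replicate 1 (adjusted p = 0.0119).

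Outside the stress-induced class, chaperones of different compartments differed in direction. Hsp60A, the mitochondrial chaperonin, had 430, 887 and 819 CPM in brat-KD/Spt5-KD-labelled libraries, 1080, 1073, 1300 and 1084 CPM in Brat-depleted libraries, and 405, 438 and 477 CPM in control libraries. It rose by 1.36 ± 0.15 in Brat-depleted NB II against the control (adjusted p = 9.25e-05) under all alternatives tried. In brat-KD/Spt5-KD-labelled libraries it stood at -0.69 ± 0.26 against Brat-depleted NB II (adjusted p = 0.125) and at 0.70 ± 0.29 against the control (adjusted p = 0.205), with replicate 1 at the control level and the other pair well above it. Without that replicate, the value against the control was 0.96 (adjusted p = 0.0104).

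Hsc70-5, the mitochondrial Hsp70, rose with both knockdown genotypes. It had 559, 643 and 475 CPM in brat-KD/Spt5-KD-labelled libraries, 624, 546, 625 and 655 CPM in Brat-depleted libraries, and 295, 201 and 206 CPM in the control, with no overlap between the control and either other genotype. The rise was 1.37 ± 0.18 in Brat-depleted NB II (adjusted p = 0.000316), kept under all alternatives, and 1.25 ± 0.25 in brat-KD/Spt5-KD-labelled libraries (adjusted p = 0.0277), each against the control. The second was lost without control replicate 2 or 3 or without replicate 2 or 3 of brat-KD/Spt5-KD-labelled libraries, at adjusted p between 0.0624 and 0.151. Between brat-KD/Spt5-KD-labelled libraries and Brat-depleted NB II the difference was -0.15, with an interval from -0.53 to 0.23.

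Hsc70-3, the Hsp70 of the endoplasmic reticulum (BiP), went the other way. It had 596, 522 and 466 CPM in brat-KD/Spt5-KD-labelled libraries, 625, 686, 635 and 571 CPM in Brat-depleted libraries, and 1089, 889 and 1011 CPM in control libraries. Every control library lay above all others. It fell by 0.68 ± 0.15 in Brat-depleted NB II (adjusted p = 0.00564), kept under all alternatives, and by 0.92 ± 0.20 in brat-KD/Spt5-KD-labelled libraries (adjusted p = 0.0341), each against the control. The second call was lost without any 1 control library or without replicate 2 or 3 of brat-KD/Spt5-KD-labelled libraries, at adjusted p between 0.084 and 0.147.

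Hsc70-4, the cytosolic Hsc70 that also strips clathrin coats, was among the 14 genes with the most counts in every library. It had 6643, 8151 and 8704 CPM in brat-KD/Spt5-KD-labelled libraries, 7902, 8705, 9846 and 7866 CPM in Brat-depleted libraries, and 5246, 5691 and 6552 CPM in control libraries. The control libraries lay below all others. The rise of 0.55 ± 0.19 in Brat-depleted NB II against the control only just passed (adjusted p = 0.04996). It was lost with 10 of 15 alternatives, and leaving out any library but brat-KD replicate 2 put its adjusted p between 0.0589 and 0.14. Its difference between brat-KD/Spt5-KD-labelled libraries and the control was 0.43 (interval -0.09 to 0.94). Hsc70Cb, the fly Hsp110, had 586 to 813 CPM in brat-KD/Spt5-KD-labelled libraries, 518 to 628 CPM in Brat-depleted libraries and 490 to 532 CPM in control libraries, and passed in no comparison. Hsc70-1 and Hsc70-2 were close to the limit of detection and were not tested. Hsc70-1 had at most 14 counts and Hsc70-2 at most 12 in a library, and Hsc70-2 was at 0 in all control libraries, with 2.60 CPM in replicate 2 of brat-KD/Spt5-KD-labelled libraries, 0.847 CPM in brat-KD replicate 2 and 0 elsewhere.

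Some CCT subunits were higher in Brat-depleted NB II. Of the 8, 3 rose against the control and none fell, where 13.8% of all genes rose and 14.3% fell: CCT3 by 0.60 ± 0.14 (adjusted p = 0.00872), CCT6 by 0.55 ± 0.14 (adjusted p = 0.0135) and CCT8 by 0.55 ± 0.13 (adjusted p = 0.0114). None of the 8 was lower at an unadjusted p under 0.05 or with DESeq2. The calls of CCT6 and CCT8 were lost without control replicate 3, at adjusted p of 0.0554 and 0.0522, and those of CCT3 and CCT8 in a fit of all 3 genotypes together, at 0.0914 and 0.176. The other 5 had differences between 0.05 for CCT1 and 0.40 for CCT5, which had an adjusted p of 0.0587, so that subunits of 1 complex did not all pass. The intervals of CCT1 (-0.29 to 0.40) and CCT3 (0.29 to 0.91) barely met, and whether the subunits differ from each other was not tested.

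CCT3 had 445, 879 and 817 CPM in brat-KD/Spt5-KD-labelled libraries, 700, 692, 661 and 570 CPM in Brat-depleted libraries, and 381, 449 and 459 CPM in control libraries. CCT6 had 578, 456 and 441 CPM in brat-KD/Spt5-KD-labelled libraries, 467, 581, 504 and 468 CPM in Brat-depleted libraries, and 362, 341 and 326 CPM in control libraries. It was the only subunit with its highest level among brat-KD/Spt5-KD-labelled libraries in replicate 1. CCT8 had 286, 715 and 593 CPM in brat-KD/Spt5-KD-labelled libraries, 520, 614, 563 and 521 CPM in Brat-depleted libraries, and 396, 381 and 351 CPM in control libraries. CCT5, the most abundant subunit, had 494, 1095 and 980 CPM in brat-KD/Spt5-KD-labelled libraries, 895, 1117, 908 and 875 CPM in Brat-depleted libraries, and 709, 724 and 701 CPM in control libraries. In replicate 1 of brat-KD/Spt5-KD-labelled libraries, 7 of the 8 subunits were at the lowest level of that genotype. Against Brat-depleted NB II none of the 8 passed in brat-KD/Spt5-KD-labelled libraries (1 higher at an unadjusted p under 0.05, and 1 with DESeq2), with a median difference of 0.06. Against the control none passed either (3 higher at an unadjusted p under 0.05, 1 with DESeq2), with a median of 0.51, whereas CCT1, CCT3, CCT4, CCT7 and CCT8 passed without replicate 1 of brat-KD/Spt5-KD-labelled libraries, at 0.89, 0.99, 0.72, 0.94 and 0.81.

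The spread within a genotype was read as the fold between its highest and lowest library, with no test. The fold between the highest and the lowest library had a median of 1.91 over the 14 stress-induced genes and 1.50 over the 12 tested constitutive genes in brat-KD/Spt5-KD-labelled libraries, 1.69 and 1.22 in Brat-depleted libraries, and 1.99 and 1.22 in control libraries. Among the constitutive genes, the 8 CCT subunits had a median of 1.92 in brat-KD/Spt5-KD-labelled libraries, as wide as that of the stress-induced genes there, but 1.24 in Brat-depleted and 1.18 in control libraries. Among the stress-induced genes, replicate 2 was the lowest library for 11 of the 14 in brat-KD/Spt5-KD-labelled libraries and for 12 of the 14 in the control, and the highest for 12 of the 14 in Brat-depleted NB II. Control replicate 3 was highest for 9 and control replicate 1 for the other 5, which were Hsp68 and the 4 copies of the Hsp70B cluster.

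**Figure D4:**
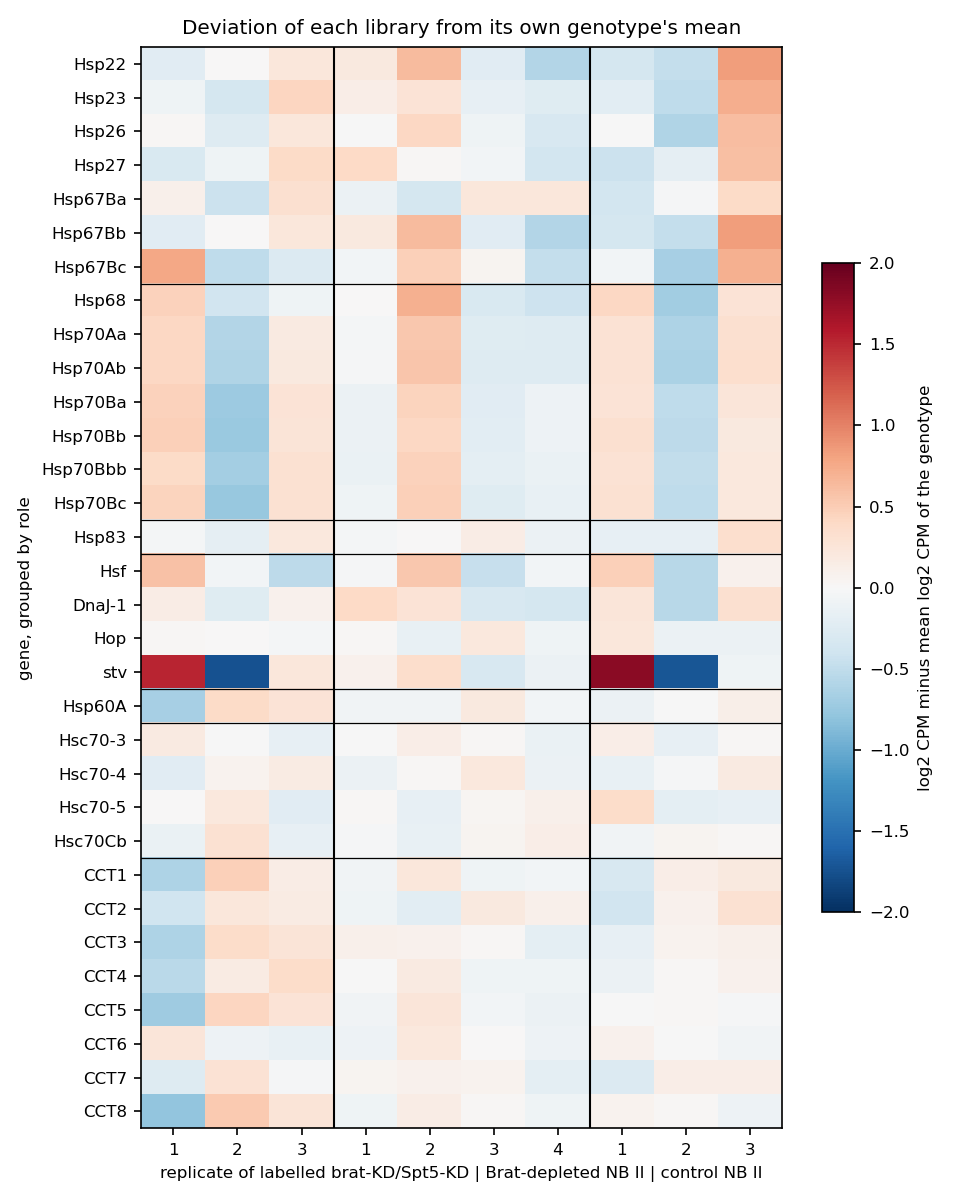
Colours give log2 CPM in each library (columns, by genotype and replicate number) minus the mean log2 CPM of that genotype, for the 32 tested members (rows, by role), with red above and blue below the mean. Most rows of stress-induced genes share their colours in some columns, as in control replicate 2, the lowest library for 12 of 14. In replicate 1 of brat-KD/Spt5-KD-labelled libraries they differ, with 8 at their highest and 3 at their lowest. The CCT rows are pale except in that same library, the lowest for 7 of 8.

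A list of 41 further chaperone and co-chaperone genes, of which 39 were found in the table, was read from the same fits. In Brat-depleted against control NB II, 3 of 32 tested genes rose and 9 fell, where 13.8% of all genes rose and 14.3% fell. Trap1, the mitochondrial Hsp90, rose by 1.87 ± 0.24 (adjusted p = 0.000314), with 165 to 208 CPM in Brat-depleted libraries against 28.6 to 61.7 CPM in control libraries, and l(2)tid, a mitochondrial J-domain protein, rose by 1.27 ± 0.19 (adjusted p = 0.000767). Roe1, the mitochondrial GrpE nucleotide exchange factor, rose by 0.87 and was named after its value was seen. The members Hsp60A and Hsc70-5 rose as well. Of other mitochondrial proteins, CG11267, the Hsp60 partner Hsp10, stood at 0.26, the J-domain protein Hsc20 at 1.03 and Hsp22 at -0.33, none past the threshold. These genes were drawn together from several roles of the lists after their values were seen. Of 5 further chaperones of the endoplasmic reticulum, 3 fell and none rose (1 higher at an unadjusted p under 0.05, none with DESeq2), beside the fall of Hsc70-3: Calr (calreticulin) by 0.81, and Gp93 (the fly GRP94) and P58IPK by 0.43 and 0.84, these last 2 named after their values were seen. The prefoldin subunits mgr and Pfdn5, which hand actin and tubulin to CCT, fell by 0.99 and 1.06, and Cdc37, which brings kinases to Hsp90, by 0.70.

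Members and list parted in brat-KD/Spt5-KD-labelled libraries. Against Brat-depleted NB II, 6 of 31 tested genes of the list rose and 2 fell, where 5.91% of all genes rose and 5.71% fell, with a median log2 fold change of 0.37 for the list, beside -0.37 for the 32 members. The member median takes the near-identical Hsp70 copies, and Hsp22 and Hsp67Bb, as separate genes. For the constitutive members alone the median was -0.03. Gp93 rose by 1.26 ± 0.16 (adjusted p = 0.00372), with 1542 to 1831 CPM in brat-KD/Spt5-KD-labelled libraries against 672 to 780 CPM in Brat-depleted libraries, and Calr by 0.71, mgr by 1.08, Cdc37 by 0.93 and CG14207, a protein with a crystallin domain, by 1.41. The J-domain protein mrj fell by 1.69. Hsc70-3 stood at -0.27 in the same comparison (interval -0.63 to 0.08) and Hsp83, whose partner Cdc37 is, fell, so chaperones of 1 compartment or pathway did not move as 1 group here. Against the control, Trap1 rose by 1.43 (adjusted p = 0.0388) and Gp93 by 0.85 (adjusted p = 0.0326), and none of the 31 fell (2 lower at an unadjusted p under 0.05, 1 with DESeq2).

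**Figure D5:**
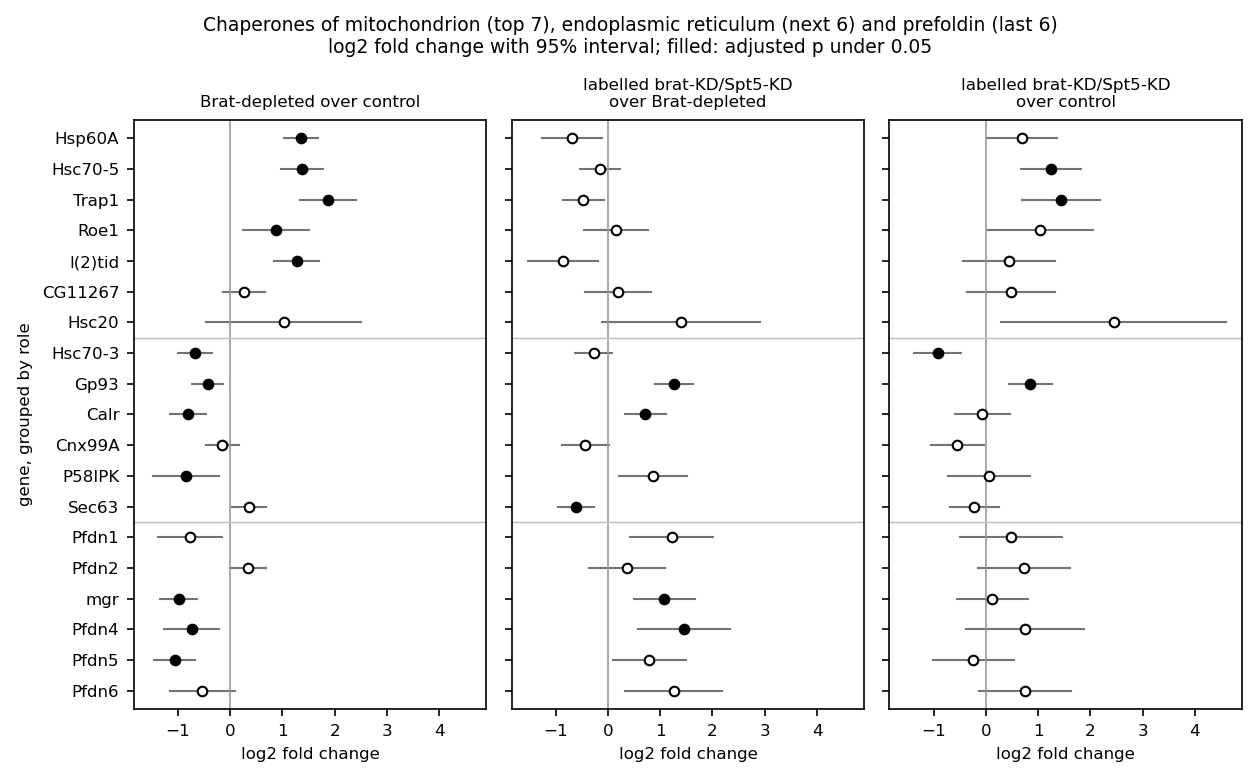
Log2 fold change with its 95% interval for chaperones of the mitochondrion, the endoplasmic reticulum and prefoldin in the 3 comparisons, with filled points at an adjusted p under 0.05. In the left panel, 5 of the 7 mitochondrial chaperones drawn rose by 0.87 to 1.87 and 4 of the endoplasmic reticulum fell, and in the middle panel Gp93 rose by 1.26 while Hsc70-3 stood at -0.27. Of all genes tested, 13.8% rose and 14.3% fell in the left panel's comparison. The mitochondrial genes were drawn together after their values were seen, and Hsp22, at -0.33, is not drawn.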

How the data were processed

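Polyadenylated RNA of sorted NB II was sequenced in 10 libraries. The authors mapped reads to BDGP6 with bowtie2 and deposited raw read counts per gene, with FastQC and edgeR 3.26.8 named in their processing notes. The counting tool and its annotation are not given in the sources used here. Gene positions came from Ensembl release 115, which held 17549 of the 17676 gene IDs. Genotypes were compared pairwise, each pair in a separate fit, with edgeR 4.0.16 (quasi-likelihood test, TMM, filterByExpr, Benjamini-Hochberg adjustment over all genes tested, threshold 0.05) in R 4.3.3, with DESeq2 1.42.0 as an alternative. CPM used 1 TMM scale over all libraries, and all intervals are 95%. The fits were also run on simulated data, without an outlying library and with changes larger than most reported here. That run therefore does not bear on the smaller changes. The members and lists were chosen with earlier results of these data known. Values in every library are given for the 18 members called in a comparison, the most abundant member of each role class, and a member at 0 throughout 1 genotype only. For other chaperones, at most the 6 with the lowest adjusted p per comparison are named, apart from those said to be chosen later. A planned search for promoter motifs was not run.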

Additional observations from a re-analysis of the deposited data

Results flagged for a closer look

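Among the 4 Brat-depleted libraries, 1 library lay far from the other 3, relative to the range of all 4, for 7 members. In replicate 2, Hsp70Ba had 3364 CPM beside 2105 to 2298 CPM in the others, Hsp70Bb 3448 CPM beside 2251 to 2422 CPM, and Hsp70Bbb 3260 CPM beside 2074 to 2174 CPM. These near-identical copies are not separate measurements. In the same library, CCT1 had 646 CPM beside 517 to 530 CPM and CCT5 had 1117 CPM beside 875 to 908 CPM. Hsp60A was high in replicate 3, with 1299.99 CPM beside 1073 to 1084 CPM, and CCT7 was low in replicate 4, with 466 CPM beside 555 to 568 CPM. Chance marks about 1 in 20 such groups, and 32 members were examined. The other genotypes have 3 libraries each and were not examined in this way.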

How the results depend on the processing

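Stress-induced genes kept a median below 0 under every alternative run: -0.92 to -0.48 in Brat-depleted against control NB II, -0.79 to -0.36 and -1.54 to -1.02 in brat-KD/Spt5-KD-labelled libraries against Brat-depleted and control NB II. Calls of single members were less settled. For values that moved or turned, the cause was not tested. Depth limits Hsc70-1 and Hsc70-2, which were not tested.

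In Brat-depleted against control NB II, 15 members were called, 6 higher and 9 lower. All 3 genotypes in 1 fit gave 6 members and 1250 genes, single libraries left out 6 to 16 members, and TMM computed without the 34 members (chosen after seeing the data) 13, of which 7 were higher and 6 lower. The constitutive median was 0.42 with total counts and 0.29 to 0.41 with single libraries left out. DnaJ-1 turned to 0.031 with total counts and 0.0021 with TMM computed without the members. With single libraries left out, fold changes ranged from -0.57 to 0.23 for Hsp22 and Hsp67Bb, -0.50 to 0.093 for Hsp26, -0.015 to 0.24 for Hsp83, -0.23 to 0.13 for DnaJ-1, -0.35 to 0.14 for Hsf, -0.56 to 1.31 for stv and -0.070 to 0.16 for CCT1.

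In brat-KD/Spt5-KD-labelled against Brat-depleted libraries, 4 members were called. DESeq2 gave 9 members and 1648 genes, and single libraries left out 1 to 10 members and 334 to 2408 genes. CCT2 turned to -0.032 with total counts and -0.020 without a filter. With single libraries left out, the constitutive median ranged from -0.12 to 0.23, and fold changes from -0.13 to 0.20 for CCT2, -0.10 to 0.37 for CCT3, -0.41 to 0.12 for CCT5, -0.18 to 0.012 for CCT6, -0.38 to 0.23 for CCT8, -0.0066 to 0.28 for Hsc70Cb and -1.22 to 0.26 for stv.

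In brat-KD/Spt5-KD-labelled against control libraries, 5 members were called. DESeq2 size factors gave 8, total counts 9, no filter 16, a minimum of 10 counts 17, DESeq2 17 (1347 genes), all 3 genotypes in 1 fit 17 (1450 genes), single libraries left out 1 to 17 (64 to 1504 genes), and leaving out replicate 1 of both genotypes (chosen after seeing the data) 21 (2513 genes), where stv stood at 0.019. With single libraries left out, CCT2 ranged from -0.030 to 0.38 and stv from -1.30 to 1.02.

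Replicate numbers are shared between genotypes, and the deviations of same-numbered libraries from their genotype means had correlations from -0.02 to 0.15. In brat-KD/Spt5-KD-labelled against control libraries all were above 0, at 0.13, 0.15 and 0.05. With so few libraries per genotype, these values cannot show whether equal numbers mark libraries handled together, and the labels do not say. With a replicate block, 7, 0 and 10 members were called in the 3 comparisons in the order above, and 1 and 232 genes in the last pair of comparisons. The block used only replicate numbers present in both genotypes, so brat-KD replicate 4 was left out. Leaving out that library without a block gave 8 members against the control. For brat-KD/Spt5-KD-labelled against Brat-depleted libraries it gave 3 members and 438 genes. In Brat-depleted against control NB II, DnaJ-1 stood at 0.10 and stv at 0.54 with the block. The summed Hsp70 copies passed with it in brat-KD/Spt5-KD-labelled against control libraries (-1.25, adjusted p = 0.0271).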
